A study of Rattus norvegicus with 34 samples.

Results

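This section describes the response of the liver to an acute dose of toluene in middle-aged rats. Its members are the 6 arrays of 12-month-old male Brown Norway rats, out of 34 arrays in the series, and they were taken by their labels alone. The dosed group held 3 rats given toluene by oral gavage in corn oil at 1 g/kg and killed 4 h later. The control group held 3 rats of the same strain, sex and age whose labels give no treatment. A corn oil gavage is not stated for the controls, so the effects of gavage, vehicle and toluene cannot be told apart. All rats were housed individually under a 12-h light-dark cycle, and the time of day at death is not given in the sources used here. Total liver RNA from each animal was measured on its own Affymetrix whole-genome rat array. Rats of the same strain at 4 and at 24 months, dosed and undosed in the same way with 3 in each group, served for comparison of the responses.

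Toluene is a volatile aromatic solvent. Liver cytochromes P450 oxidise it mainly at its methyl group to benzyl alcohol, which alcohol and aldehyde dehydrogenases turn into benzoic acid, and glycine conjugation then yields hippuric acid for excretion in urine. Foreign compounds can also switch on their own metabolism through nuclear receptors of the hepatocyte. The constitutive androstane receptor CAR and the pregnane X receptor PXR induce P450s of the Cyp2b and Cyp3a families, transporters and conjugating enzymes, and the classical inducer of Cyp2b genes is phenobarbital. New P450 protein needs heme, and Alas1, the first and rate-limiting enzyme of heme synthesis in liver, is commonly induced alongside. The aryl hydrocarbon receptor Ahr, a different sensor, acts chiefly on Cyp1 genes.

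The values are probe set signals on a linear scale. Signals below 32 were set to that floor before log2 was taken, and 13972 probe sets above the floor on at least 3 of the 18 Brown Norway arrays were tested, naming 8592 genes. Of these probe sets 11216 name a single gene, 312 several and 2444 none. A probe set was called when its p from limma, adjusted over all probe sets by the method of Benjamini and Hochberg, lay under 0.05.

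Across 12 months, median signals of the 6 arrays were 35.6 to 37.3 and the GAPDH 3' to 5' ratio, a sign of RNA integrity, was 0.774 to 0.888. Replicate numbers are names only. Toluene replicate 3 stood apart most: 479 probe sets lay at least 2-fold from the mean log2 signal of the other dosed arrays. The counts were 221 and 258 for the other dosed arrays. They were 371, 133 and 41 for control replicates 3, 1 and 2, each set against the mean of the other controls. For many of the lists and genes described below whose difference turns on toluene replicate 3, the value without it is given too. The hepatocyte markers checked the tissue: 18 of 20 listed genes were measured, and none was at the floor on all 6 arrays. Their summed signal was 96419 to 97913 in controls and 96348 to 97957 in dosed rats. None was called in limma, and 0 of 18 had an unadjusted p under 0.05.

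Of 13972 probe sets, 5 were called higher in the dosed rats, a percent called of 0.0358, and 0 were called lower (0%). Among the 8592 genes, 3 were called higher (0.0349%) and 0 lower, with 194 higher (2.26%) and 203 lower (2.36%) at an unadjusted limma p under 0.05. Over all probe sets, at an unadjusted limma p under 0.05 there were 303 higher (2.17%) and 352 lower (2.52%). The 3 dosed and 3 control signals did not overlap for 474 probe sets higher (3.39%) and 535 lower (3.83%), and the median log2 fold change was 0.0051. The count of calls was 4 without toluene replicate 3, 3 without toluene replicate 1, 2 without toluene replicate 2 and 2 without control replicate 2. Without control replicate 1 it was 8, of which 3 were lower. The probe sets called were a probe set shared by Cyp2b1 and Cyp2b2, Tsku, Alas1, Nr0b2 and the unnamed probe set 1378982_at.

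**Figure D1:**
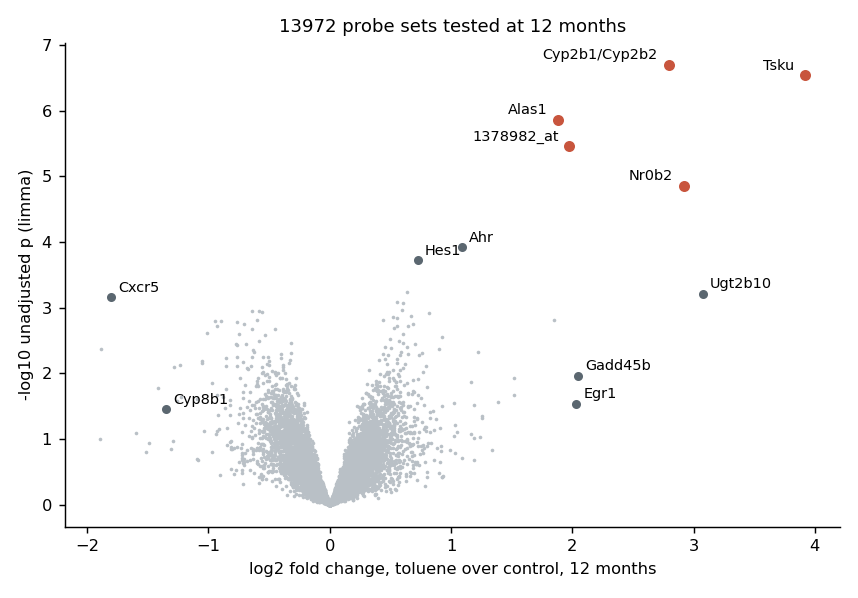
Log2 fold change of toluene over control at 12 months (horizontal) against -log10 of the unadjusted limma p (vertical) for 13972 probe sets. Red points are the 5 called probe sets, all on the higher side; grey labelled points, such as Ahr with an adjusted p of 0.279, were not called.

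The regions upstream of the genes named by the called probe sets are printed because 2 of them belong to near-identical gene copies and because the responding genes can be compared by the letters they share. Each is the 250 bases before the annotated start from RefSeq, build GRCr8, read 5′ to 3′ on the gene's strand, and all 5 genes looked up were matched. Capitals mark GCGTG on either strand, the core letters of the site bound by Ahr with its partner Arnt. The windows are chr1:90645869-90646118 on the plus strand for Cyp2b1, chr1:90722031-90722280 on the plus strand for Cyp2b2, chr8:115768643-115768892 on the minus strand for Alas1, chr5:151062910-151063159 on the plus strand for Nr0b2 and chr1:162082769-162083018 on the minus strand for Tsku.
Cyp2b1: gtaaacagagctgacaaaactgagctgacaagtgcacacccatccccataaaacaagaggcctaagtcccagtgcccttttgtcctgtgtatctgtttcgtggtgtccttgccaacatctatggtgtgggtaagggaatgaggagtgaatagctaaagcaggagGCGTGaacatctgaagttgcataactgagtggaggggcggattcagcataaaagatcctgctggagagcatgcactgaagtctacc
Cyp2b2: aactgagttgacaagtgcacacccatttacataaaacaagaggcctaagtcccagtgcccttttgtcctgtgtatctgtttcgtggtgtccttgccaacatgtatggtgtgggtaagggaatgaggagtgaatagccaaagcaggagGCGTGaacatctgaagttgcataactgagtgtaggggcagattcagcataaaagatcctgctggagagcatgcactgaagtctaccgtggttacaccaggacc
Alas1: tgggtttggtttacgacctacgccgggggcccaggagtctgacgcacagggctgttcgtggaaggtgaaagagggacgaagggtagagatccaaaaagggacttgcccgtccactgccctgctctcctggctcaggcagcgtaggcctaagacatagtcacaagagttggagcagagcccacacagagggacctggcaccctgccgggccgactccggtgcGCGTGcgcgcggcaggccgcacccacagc
Nr0b2: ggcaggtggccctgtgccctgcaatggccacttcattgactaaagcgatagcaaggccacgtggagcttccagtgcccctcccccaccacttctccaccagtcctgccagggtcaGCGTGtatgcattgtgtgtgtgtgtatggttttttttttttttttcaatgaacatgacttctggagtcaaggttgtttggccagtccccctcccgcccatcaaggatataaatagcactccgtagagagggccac
Tsku: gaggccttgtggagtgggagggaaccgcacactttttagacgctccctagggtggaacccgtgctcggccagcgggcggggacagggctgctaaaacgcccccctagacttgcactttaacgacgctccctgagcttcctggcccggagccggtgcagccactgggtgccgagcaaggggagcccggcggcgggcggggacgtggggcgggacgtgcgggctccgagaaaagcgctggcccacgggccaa

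Laid over each other without gaps, the Cyp2b1 and Cyp2b2 windows were identical at 225 of 233 bases (96.6%). GCGTG occurred in 4 of the 5 windows, the exception being Tsku, and in 25.9% of 33469 promoter windows of the same length. Because the Cyp2b windows are copies, their matches are not separate observations. CACGTG, the E-box, occurred in the Nr0b2 window alone and in 5.59% of all windows. TGCNCNC, the core of the metal response element, occurred in the Cyp2b1, Cyp2b2 and Alas1 windows and in 43.4% of all windows, and 1 of its 2 matches in Alas1 overlapped GCGTG. None of the 5 windows held AGGTCA, the core hexamer bound by many nuclear receptors (14.1% of all windows), or the antioxidant core TGACNNNGC (10.1%). None held the heat shock unit GAANNTTC (7.23%), TGACGTCA (1.59%), TTGCATCA (0.693%) or the palindromic glucocorticoid element (0.012%). An exact direct repeat of TGAACT with 3 bases between its copies was also absent (0.00598%), and repeats with other spacings were not searched. All motifs were searched on both strands. These matches describe letters in a short window and say nothing of binding.

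The P450 response came first by p. The annotation assigns probe set 1371076_at to both Cyp2b1 and Cyp2b2, the phenobarbital-inducible P450s of rat liver, so its signal cannot be divided between them. Its signals were 432, 921 and 929 in the control rats and 4997, 4760 and 5206 in the dosed rats. The lowest dosed signal was several times the highest control signal. The means were 761 ± 285 and 4988 ± 223 (SD, n = 3), a 6.95-fold rise (log2 fold change 2.80, SE 0.31, adjusted p = 0.0020 in limma). It was called with each of the 6 arrays left out in turn.

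Alas1 rose with little spread between animals. Its signals were 909, 638 and 716 in controls and 2726, 2881 and 2648 in dosed rats, so that the groups were far apart and the dosed rats nearly alike. The means were 754 ± 139 and 2752 ± 118 (SD, n = 3), a 3.69-fold rise (log2 fold change 1.88, SE 0.25, adjusted p = 0.0063 in limma). The call was narrowly lost without toluene replicate 2 (adjusted p = 0.0571) or without control replicate 2 (adjusted p = 0.0549), with log2 fold changes of 1.85 and 1.77, and also without both toluene replicate 3 and control replicate 3 (adjusted p = 0.141).

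Tsku encodes Tsukushi, a small leucine-rich proteoglycan that is secreted by the liver. Its signals were 16.9, 33.4 and 27.1 in controls, of which 2 lay below the floor, and 368, 300 and 1076 in dosed rats. Toluene replicate 3 was the highest of the dosed rats, and the other dosed rats were also far above every control. Tsku rose at least 15.1-fold (log2 fold change 3.92, SE 0.45, adjusted p = 0.0020 in limma), and it was called with each of the 6 arrays left out in turn.

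Nr0b2 encodes SHP, a nuclear receptor without a DNA-binding domain that represses other receptors and, downstream of the bile acid receptor FXR, bile acid synthesis. Its signals were 45.3, 62.6 and 43.3 in controls and 287, 335 and 553 in dosed rats. Every dosed rat was above every control. The means were 50.4 ± 10.6 and 392 ± 142 (SD, n = 3), a 7.57-fold rise (log2 fold change 2.92, SE 0.46, adjusted p = 0.0386 in limma). Leaving out any single array of 12 months ended the call: the adjusted p was 0.0950 without toluene replicate 1, 0.163 without toluene replicate 2 and 0.307 without toluene replicate 3. It was 0.0772 without control replicate 1, 0.114 without control replicate 2 and 0.257 without control replicate 3, while the log2 fold change stayed between 2.64 and 3.12.

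The probe set 1378982_at carries no gene name in the annotation used here. Its signals were 50.0, 82.2 and 88.5 in controls and 279, 378 and 210 in dosed rats, again without overlap. It rose 3.93-fold (log2 fold change 1.98, SE 0.28, adjusted p = 0.0121 in limma). The call was lost without toluene replicate 1 (adjusted p = 0.0829), toluene replicate 2 (adjusted p = 0.114) or control replicate 2 (adjusted p = 0.0549), and with only the 6 arrays of 12 months in the fit (adjusted p = 0.169).

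**Figure D2:**
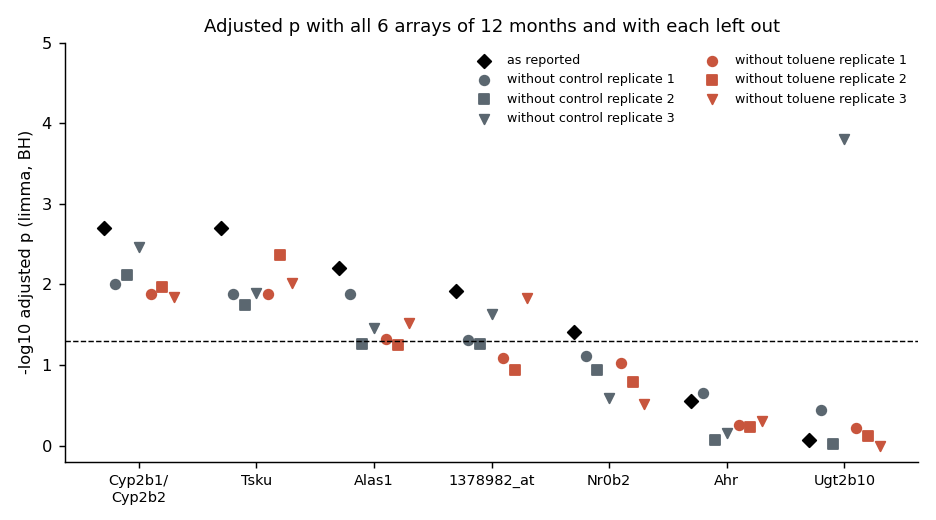
-log10 of the adjusted limma p (vertical) for the 5 called probe sets and for Ahr and Ugt2b10, with all 6 arrays of 12 months (black) and with each control (grey) or dosed array (red) left out. The dashed line is the threshold of 0.05. The Cyp2b probe set and Tsku stayed above it throughout. Nr0b2 lay above it with all 6 arrays and fell below it with any array left out, and Ugt2b10 passed it without control replicate 3.

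Between the called and the uncalled probe sets lay a wide step in adjusted p, from 0.0386 for Nr0b2 to 0.279 for Ahr. Ahr, the aryl hydrocarbon receptor itself, had signals of 76.8, 83.0 and 83.7 in controls and 181, 180 and 158 in dosed rats. The groups did not overlap and were tight, at 81.2 ± 3.76 and 173 ± 13.1 (SD, n = 3), a log2 difference of 1.09 (SE 0.21, adjusted p = 0.279 in limma), so the difference did not pass over all probe sets. With a floor 4 times as high it was called (adjusted p = 0.0265), with all 3 controls set to that floor and a log2 difference of 0.43. Of 4 measured Ahr targets limma called 0, with 0 at an unadjusted p under 0.05. Cyp1a2, the main Ahr-responsive P450 measured, had signals of 3482, 3587 and 3592 in controls and 3527, 4084 and 4284 in dosed rats (log2 difference 0.15, SE 0.17), and Nqo1, a quinone reductase, had a log2 difference of -0.03, or -0.37 without toluene replicate 3. Cyp1a1 has no probe set of its own in the table.

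Hes1, a transcriptional repressor downstream of Notch, followed with signals of 151, 126 and 118 in controls and 217, 186 and 252 in dosed rats (log2 difference 0.72, SE 0.15, adjusted p = 0.377 in limma). Ugt2b10, a glucuronosyltransferase, had signals of 19.5, 15.7 and 424 in controls and 888, 464 and 627 in dosed rats. Control replicate 3 thus lay close to the dosed rats, while the other controls were below the floor. The log2 difference was 3.07 (SE 0.71, adjusted p = 0.862 in limma), and without control replicate 3 it was 4.32 with an adjusted p of 0.000155. At 4 and 24 months the lowest Ugt2b10 signal in any rat, dosed or not, was 262, so the pair of 12-month controls below the floor were the unusual animals among the 18.

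The 20 genes of smallest p comprised 13 higher and 7 lower in the dosed rats. In all 20 the 3 dosed and 3 control signals did not overlap, beside 3.53% of all genes higher and 4.05% lower. They were picked by p on these same arrays, which favours groups without overlap, so that count is no further evidence. After the 3 called genes their adjusted p-values ran from 0.279 to 0.862. On the higher side were Utp6 (log2 difference 0.56), a ribosome biogenesis factor; Vamp4 (0.61), a vesicle fusion protein; C11h21orf91 (0.67); Dip2a (0.52); Parn (0.55), a poly(A) nuclease; Vav2 (0.44); and Rell1 (1.85). Rell1 had signals of 66.5, 66.4 and 33.0 in controls and 228, 117 and 254 in dosed rats. On the lower side were Cxcr5 (-1.80), a chemokine receptor of lymphocytes; Sp100 (-0.58), a nuclear body protein; Helz2 (-0.55), a nuclear receptor coactivator; Cyp2d4 (-0.60), a P450; Msmp (-0.95); LOC102548586 (-0.89); and LOC100909782 (-0.77). Cxcr5 had signals of 60.0, 117 and 232 in controls and 37.4, 31.1 and 8.0 in dosed rats, while its other tested probe set was at the floor on 2 control and all 3 dosed arrays and so measured no difference. None of these genes passed over all probe sets.

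The enzymes of toluene's own route were examined as a list whether or not they changed. Of 25 listed symbols 19 were measured, 0 were called in limma, and 1 had an unadjusted p under 0.05, higher, beside 2.26% of all genes. Their median log2 difference was 0.09, beside 0.0076 over all 8592 genes tested. Non-overlapping signals occurred in 1 of the 19 higher and 0 lower, beside 3.53% and 4.05% of all genes.

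Cyp2e1, the ethanol-inducible P450 with high affinity for toluene, had signals of 7004, 7394 and 7375 in controls and 7391, 7119 and 7426 in dosed rats. The groups overlapped and the log2 difference was 0.01 (SE 0.09). Cyp2c11, the male-specific P450 that also oxidises toluene, had signals of 4343, 4963 and 5413 in controls and 5301, 5107 and 2804 in dosed rats, where toluene replicate 3 alone was low (log2 difference -0.21, and 0.09 without it). Cyp2b3, a Cyp2b gene with a probe set of its own, had 4304, 3738 and 3929 in controls and 3748, 4319 and 4695 in dosed rats (log2 difference 0.09, SE 0.11), against the rise of the probe set shared by Cyp2b1 and Cyp2b2. Cyp2c6v1, a further P450 on the list, had a log2 difference of 0.14.

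Por, the reductase that passes electrons to all microsomal P450s, had signals of 261, 569 and 350 in controls and 508, 453 and 1130 in dosed rats on its brighter probe set. Toluene replicate 3 was the highest, control replicate 2 exceeded the lower dosed pair, and the log2 difference of 0.77 (SE 0.40, adjusted p = 0.943 in limma) did not pass and was 0.36 without toluene replicate 3. Cyb5a, cytochrome b5, and Cyb5r3, its reductase, had log2 differences of 0.10 and -0.12. Of the dehydrogenases, Aldh1a1 had signals of 737, 1069 and 646 in controls and 1378, 1212 and 1365 in dosed rats, without overlap (log2 difference 0.72, SE 0.34, adjusted p = 0.943 in limma). The mitochondrial Aldh2 had a log2 difference of -0.14, Aldh3a2 -0.23, Aldh1b1 -0.20 and Adh4 0.27. Without toluene replicate 3, Aldh2 was at -0.0096, Aldh3a2 at -0.06 and Adh4 at 0.46.

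The last steps join benzoate to coenzyme A and then to glycine. The acyl-CoA ligases Acsm1, Acsm2, Acsm3 and Acsm5 had log2 differences of -0.05, 0.36, -0.08 and 0.10, and Acsm2 was at -0.08 without toluene replicate 3. Acsm5 lay below the floor in all 3 controls and in 2 dosed rats, and its difference was 0 without toluene replicate 3. Glyat, the glycine transferase, had signals of 359, 405 and 427 in controls and 499, 414 and 326 in dosed rats, which overlap (log2 difference 0.04, SE 0.21, and 0.20 without toluene replicate 3). Its relative Glyatl2 had 87.6, 131 and 99.6 in controls and 152, 116 and 237 in dosed rats (log2 difference 0.62, SE 0.20, adjusted p = 0.943 in limma, and 0.35 without toluene replicate 3). Within this route, the call at 4 h was therefore limited to the probe set shared by Cyp2b1 and Cyp2b2.

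Targets of CAR and PXR were 28 measured genes of 49 listed symbols, 20 of them with a positive log2 difference, and 1 (Alas1) was called higher and 0 lower in limma. Their median log2 difference was 0.17 and the groups did not overlap in 5 of the 28 higher and in 0 lower, beside 3.53% and 4.05% of all genes. The shared Cyp2b probe set is not in this count because it names 2 genes. The 5 were Alas1, Gadd45b, Gsta3, Aldh1a1 and Ephx1. Gadd45b, a stress-induced CAR coactivator, had 20.8, 22.5 and 3.73 in controls, all below the floor, and 212, 135 and 80.2 in dosed rats (adjusted p = 0.943 in limma). Ephx1, microsomal epoxide hydrolase, had 1652, 1916 and 2154 in controls and 2971, 2368 and 2932 in dosed rats (log2 difference 0.53, SE 0.22). Gsta3, a glutathione transferase, had 143, 341 and 217 in controls and 409, 391 and 895 in dosed rats (log2 difference 1.26, SE 0.57). Neither passed, both with an adjusted p of 0.943 in limma.

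Cyp3a23-3a1, the PXR-inducible P450, had signals of 4155, 4749 and 3417 in controls and 5067, 4601 and 4461 in dosed rats, which overlap (log2 difference 0.21, SE 0.14). The glucuronosyltransferase Ugt2b1 had a log2 difference of 0.47 (SE 0.19) and the efflux pump gene Abcb1a 0.53 (SE 0.26) and 0.73 (SE 0.26) on its 2 probe sets. The receptors themselves had log2 differences of 0.13 for Nr1i3 (CAR) and -0.11 for Nr1i2 (PXR). At the foot of the list stood Cyp3a18 (-0.51), Cyp2c7 (-0.30), Cyp3a2 (-0.27) and Cyp2a2 (-0.17), and in each of these toluene replicate 3 was the lowest of all 6 rats. Without it they had log2 differences of -0.02, -0.04, 0.16 and 0.17, and the list median was 0.21. Gsta3 was at 0.87 without it.

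**Figure D3:**
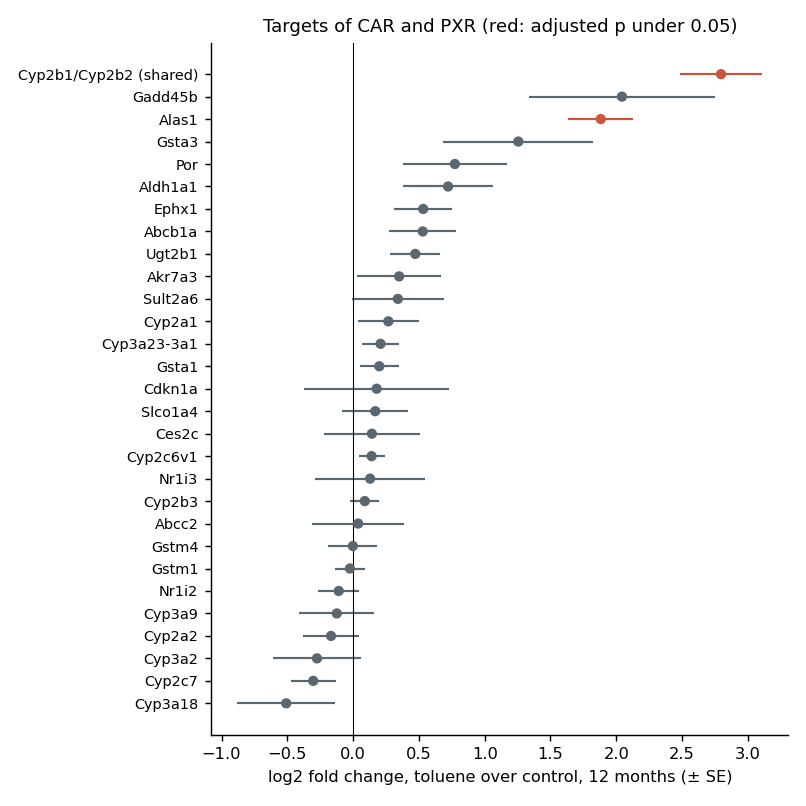
Log2 fold change of toluene over control at 12 months with its standard error for 28 CAR and PXR targets and the probe set shared by Cyp2b1 and Cyp2b2. Red marks the 2 called, Cyp2b1/Cyp2b2 at 2.80 and Alas1 at 1.88; the other 27 were not called.

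Lists of other stress sensors held no called gene. Of 21 Nrf2 targets 0 were called in limma and the median log2 difference was 0.04. An unadjusted p under 0.05 was reached by 3, all higher, beside 2.26% of all genes, and the groups did not overlap in 3, all higher, beside 3.53%. The 3 without overlap were Ephx1, Gsta3 and Trib3, and the first pair is also in the CAR and PXR list. Of 44 genes of ER stress and the integrated stress response, 37 had a positive log2 difference and 0 were called in limma. An unadjusted p under 0.05 was reached by 3 of the 44, all higher, beside 2.26% of all genes. The list median was 0.20, and 0.10 without toluene replicate 3. The dosed signals lay above all controls in 4 of the 44, beside 3.53% of all genes. Ddit3, the stress-induced factor CHOP, had 66.5, 62.3 and 59.1 in controls and 117, 91.3 and 96.1 in dosed rats (log2 difference 0.69, SE 0.26, adjusted p = 0.943 in limma). Trib3, a pseudokinase induced by the same stress, had 54.0, 36.3 and 56.3 in controls and 110, 57.4 and 74.4 in dosed rats (log2 difference 0.70, SE 0.32), so that toluene replicate 2 lay just above the highest control. The other Trib3 probe sets had log2 differences of 0.36 and 0.23. Hmox1, heme oxygenase, had signals of 155, 157 and 124 in controls and 101, 86.3 and 154 in dosed rats (log2 difference -0.39, SE 0.70). Gclc, which makes glutathione's precursor, had -0.15 and -0.10 on its 2 probe sets. Of 22 heat shock genes and chaperones 0 were called and 0 had an unadjusted p under 0.05, with a log2 difference of 0.25 for Hspa1a (SE 0.17), the inducible Hsp70. The metallothioneins Mt1 and Mt2A, which respond to metals and stress, had log2 differences of -0.29 (SE 0.35) and -0.24 (SE 0.34).

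Around Nr0b2, the genes of bile acid synthesis and transport were split. Of 26 measured, 1 was called higher (Nr0b2) and 0 lower, and 13 had a positive and 13 a negative difference. In 4 the dosed signals lay below all controls, beside 4.05% of all genes, and in 2 above, beside 3.53%. Cyp8b1, the sterol 12-hydroxylase that sets the share of cholic acid and a gene repressed by SHP, had 3211, 3474 and 3200 in controls and 2160, 2975 and 337 in dosed rats. Every dosed rat was lower than every control, and toluene replicate 3 was far below the rest (log2 difference -1.35, SE 0.58, adjusted p = 0.943 in limma, and -0.38 without toluene replicate 3). Cyp7a1, the rate-limiting enzyme of the pathway, had 495, 1215 and 76.1 in controls and 812, 1031 and 380 in dosed rats, and the groups overlapped throughout. Its log2 difference was 0.93 (adjusted p = 0.952 in limma), and 1.36 without toluene replicate 3. Nr1h4, which encodes FXR, had 522, 559 and 654 in controls and 498, 514 and 435 in dosed rats (log2 difference -0.26).

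Immediate early genes, which cells switch on within minutes to hours of a signal, leaned upward without a call. Of 21 measured, 19 had a positive log2 difference, 0 were called in limma and the median was 0.37. An unadjusted p under 0.05 was reached by 6, all higher, beside 2.26% of all genes. The dosed signals lay above all controls in 7 of the 21, beside 3.53% of all genes, and below in 1, beside 4.05%. The median was 0.33 without toluene replicate 3 and 0.18 with a floor 4 times as high. Jun, a subunit of AP-1, had 87.2, 72.3 and 51.9 in controls and 195, 146 and 271 in dosed rats, and its 3 probe sets had log2 differences of 1.52, 1.25 and 1.03. Egr1 had 85.7, 37.6 and 50.5 in controls and 97.9, 141 and 805 in dosed rats, with toluene replicate 3 far above the others (log2 difference 2.03, SE 0.84, and 1.11 without it). Ier2 had 130, 69.8 and 68.0 in controls and 117, 126 and 210 in dosed rats (log2 difference 0.78, and 0.51 without toluene replicate 3).

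Several list medians moved mostly with toluene replicate 3. Of 24 cholesterol synthesis genes 23 had a positive difference and 0 were called in limma. At an unadjusted p under 0.05 there was 1, higher, beside 2.26% of all genes. The groups did not overlap in 2 higher and 0 lower of the 24, beside 3.53% and 4.05% of all genes. The list's median log2 difference of 0.50 was 0.05 without that array. Set against the mean of the controls, the list lay at -0.30 and 0.24 in dosed rats 1 and 2 and at 1.34 in replicate 3. Insig1, a feedback sensor of sterols, had 406, 328 and 352 in controls and 147, 351 and 1867 in dosed rats, and Sqle, squalene epoxidase, had 89.7, 54.8 and 53.5 against 35.3, 74.7 and 329. Without toluene replicate 3 their log2 differences went from 0.35 to -0.67 and from 0.58 to -0.32. The 52 genes of ribosome biogenesis had a median of 0.22, and 0.05 without the same array, with 0 called in limma. At an unadjusted p under 0.05 there were 2, all higher, beside 2.26% of all genes. In 6 of the 52 all dosed rats lay above all controls, beside 3.53% of all genes, and in 0 below, beside 4.05%.

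The male-dominant genes, which depend on the male pattern of growth hormone, were low in the same animal. Of 18 measured, 0 were called in limma and 0 had an unadjusted p under 0.05, and the median log2 difference of -0.20 was 0.05 without it. Stac3 had signals of 969, 562 and 1291 in controls and 773, 1220 and 2.90 in dosed rats. Obp3, a urinary carrier protein, had 3753, 4132 and 3897 against 4219, 4535 and 955, and Hao2, a hydroxyacid oxidase, 3496, 3071 and 4394 against 3704, 3571 and 694. In the other dosed rats Stac3 and Hao2 were in the control range and Obp3 lay above it. The P450 list of 40 genes had a median of -0.13, and 0.01 without toluene replicate 3, with 0 called. At an unadjusted p under 0.05 there were 4 lower and 0 higher, beside 2.36% and 2.26% of all genes.

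Markers of blood and of other liver cells also differed between dosed animals. The summed signal of the 3 measured erythrocyte markers was 5032 to 6138 in controls and 6571, 5915 and 1063 in dosed rats, lowest in toluene replicate 3. Of these Hbb, beta globin, had 5600, 4889 and 5954 in controls and 6305, 5682 and 1012 in dosed rats, and Alas2, the erythroid counterpart of Alas1, 143, 120 and 157 against 229, 199 and 21.8. Alas1 was as high in that animal as in the others. The 17 measured markers of stellate cells and fibroblasts summed to 2630 to 2775 in controls and 2150, 5152 and 2354 in dosed rats, highest in toluene replicate 2. Dcn, a matrix proteoglycan, had 95.1, 953 and 197 in the dosed rats, and Tagln, a smooth muscle protein, 7.31, 319 and 57.1. The 18 markers of Kupffer cells and macrophages summed to 6347 to 7603 in controls and 5527 to 6033 in dosed rats, with 0 called in limma and 0 at an unadjusted p under 0.05. Their median log2 difference was -0.20, and -0.33 without toluene replicate 3. The groups did not overlap in 3 lower and 0 higher of the 18, beside 4.05% and 3.53% of all genes. No marker on these 3 lists was at the floor on all 6 arrays, and their part in the results was not tested. In whole liver RNA, fewer cells of a type and less RNA per cell cannot be told apart.

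**Figure D4:**
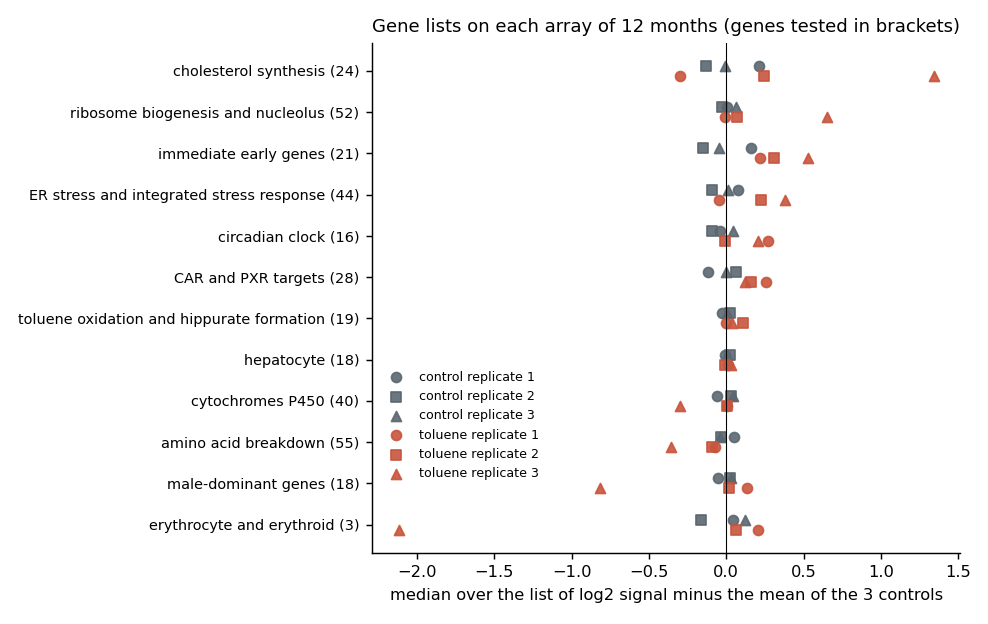
Median over each list's tested genes of log2 signal minus the mean of the 3 controls, for every array of 12 months (grey controls, red dosed, symbols for replicates). Toluene replicate 3 lies apart for cholesterol synthesis (1.34), male-dominant genes (-0.81) and erythrocyte markers (-2.12), while the hepatocyte list stays near 0 on all 6 arrays.

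Groups tied to time of day and feeding showed no call. Of 16 clock genes 0 were called in limma, 4 had an unadjusted p under 0.05, all higher, beside 2.26% of all genes, and the median log2 difference was 0.34, or 0.03 with a floor 4 times as high. The groups did not overlap in 3 higher and 2 lower of the 16, beside 3.53% and 4.05% of all genes. Usp2, a clock output deubiquitinase, had 29.98, 15.2 and 5.2 in controls, all below the floor, and 40.0, 44.4 and 217 in dosed rats (log2 difference 1.19, and 0.40 without toluene replicate 3). Bmal1, a core activator of the clock, had 93.4, 101 and 133 against 61.8, 95.7 and 108, and Nr1d1, its repressor, 92.7, 57.2 and 57.8 against 128, 82.8 and 21.1, both with overlap. Without toluene replicate 3 the log2 difference of Bmal1 went from -0.32 to -0.49 and that of Nr1d1 from 0.05 to 0.61. Amino acid breakdown leaned the other way: 47 of 55 measured genes had a negative difference and 0 were called in limma. An unadjusted p under 0.05 was reached by 4 lower and 1 higher, beside 2.36% and 2.26% of all genes. In 11 of the 55 all dosed rats lay below all controls, beside 4.05% of all genes, and in 1 above, beside 3.53%. The list median was -0.19, and -0.08 without toluene replicate 3. Agxt, which detoxifies glyoxylate, had 1716, 1340 and 1446 in controls and 994, 1101 and 970 in dosed rats (log2 difference -0.55, SE 0.22), and Gpt2, an alanine transaminase, 464, 423 and 380 against 280, 353 and 223 (log2 difference -0.59, SE 0.17). Neither passed, both with an adjusted p of 0.943 in limma.

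The same dose at 4 and 24 months was given to other animals with their own controls, although the filter and the estimate of the spread were shared over all 18 arrays. Of the 5 called probe sets, 3 were also called at 4 months (Tsku, Alas1 and 1378982_at), beside 0.0215% of all probe sets called higher there, and 1 at 24 months (the shared Cyp2b probe set), beside 0.0358%. At 4 months all 5 had a positive log2 difference and in 4 the groups did not overlap, beside 3.91% of all probe sets. At 24 months 3 were positive and in those 3 the groups did not overlap, beside 8.77%. Among the 20 genes of smallest p at 12 months, 16 had the same sign at 4 months and 7 at 24 months, where 49.2% and 39.9% of all probe sets had.

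Alas1 was alike at 4 and 12 months. Its signals at 4 months were 704, 616 and 724 in controls and 2542, 2405 and 2528 in dosed rats, a log2 fold change of 1.87, and the difference between the effects at 12 and 4 months was 0.01 (SE 0.35, adjusted p = 0.999 in limma). At 24 months its log2 difference was 0.87, with 300, 572 and 727 in controls and 728, 935 and 1122 in dosed rats. The effect at 12 months minus that at 24 months was 1.01 (SE 0.35, adjusted p = 0.371 in limma), which did not pass.

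The shared Cyp2b probe set reached a like level in the dosed rats of 4 and 12 months, at 5132 ± 247 and 4988 ± 223 (SD, n = 3). The controls stood at 1614 ± 252 at 4 months and 761 ± 285 at 12 months, and the log2 difference at 4 months was 1.68 (adjusted p = 0.153 in limma). The difference between these effects was 1.12 (SE 0.44, adjusted p = 0.977 in limma). At 24 months the dosed rats had 2160, 4820 and 1963 and the controls 332, 444 and 491, a log2 fold change of 2.71, and the effects at 12 and 24 months differed by 0.08 (SE 0.44, adjusted p = 0.960 in limma).

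Tsku was the member whose response differed with age. At 4 months its signals were 21.7, 27.4 and 26.1 in controls, all below the floor, and 348, 263 and 387 in dosed rats, and the effects at 12 and 4 months differed by 0.56 (SE 0.64, adjusted p = 0.977 in limma). At 24 months the controls had 193, 209 and 68.0 and the dosed rats 96.9, 173 and 75.3, so that the groups overlapped and the log2 difference was -0.37. The effect at 12 months exceeded that at 24 months by 4.29 on the log2 scale (SE 0.64, adjusted p = 0.0455 in limma). Other settings ended the call: the adjusted p was 0.107 with a floor of 8, 0.184 with a floor 4 times as high, 0.168 with no filter and 0.0501 with arrays scaled to a common median. It was lost without control replicate 1 (adjusted p = 0.12), control replicate 2 (0.153), control replicate 3 (0.0935) or toluene replicate 2 (0.0518), with a difference of 4.28 to 4.65 in these fits, and without both toluene replicate 3 and control replicate 3 (0.108).

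Over all probe sets, 2 differed between the effects of 12 and 24 months (0.0143%), Tsku and Scd, the stearoyl-CoA desaturase that makes monounsaturated fatty acids. Scd had 31.96, 17.6 and 36.9 in controls and 25.8, 17.7 and 75.9 in dosed rats at 12 months (log2 difference 0.35), whereas at 24 months it had 26.6, 30.2 and 20.2 in controls and 425, 286 and 905 in dosed rats. The difference was -3.56 (SE 0.48, adjusted p = 0.0300 in limma), and it was not called with a floor of 8 (adjusted p = 0.342), with a floor 4 times as high (0.128), with no filter (0.0729) or without control replicate 1 (0.0978), control replicate 2 (0.115), control replicate 3 (0.0735) or toluene replicate 2 (0.0670). Between the effects of 12 and 4 months limma called 0 probe sets (0%), while 446 (3.19%) had an unadjusted p under 0.05.

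Nr0b2 rose at 12 months and was not called at the other ages. At 4 months it had 95.9, 19.3 and 118 in controls and 103, 167 and 234 in dosed rats, which overlap, and at 24 months 54.8, 70.5 and 58.2 against 51.0, 30.4 and 96.3. The effect at 12 months was larger by 1.77 than at 4 months (SE 0.66, adjusted p = 0.977 in limma) and by 3.09 than at 24 months (SE 0.66, adjusted p = 0.288 in limma), and neither difference passed. The unnamed probe set 1378982_at had log2 fold changes of 2.23 at 4 and 1.19 at 24 months, the second not called, and neither differed from 12 months (adjusted p = 0.977 and 0.491 in limma). Ahr had 97.0, 54.6 and 50.3 in controls and 102, 144 and 121 in dosed rats at 4 months, again without overlap, and a log2 difference of 0.91 that was not called (adjusted p = 0.665 in limma). At 24 months its log2 difference was 0.26.

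**Figure D5:**
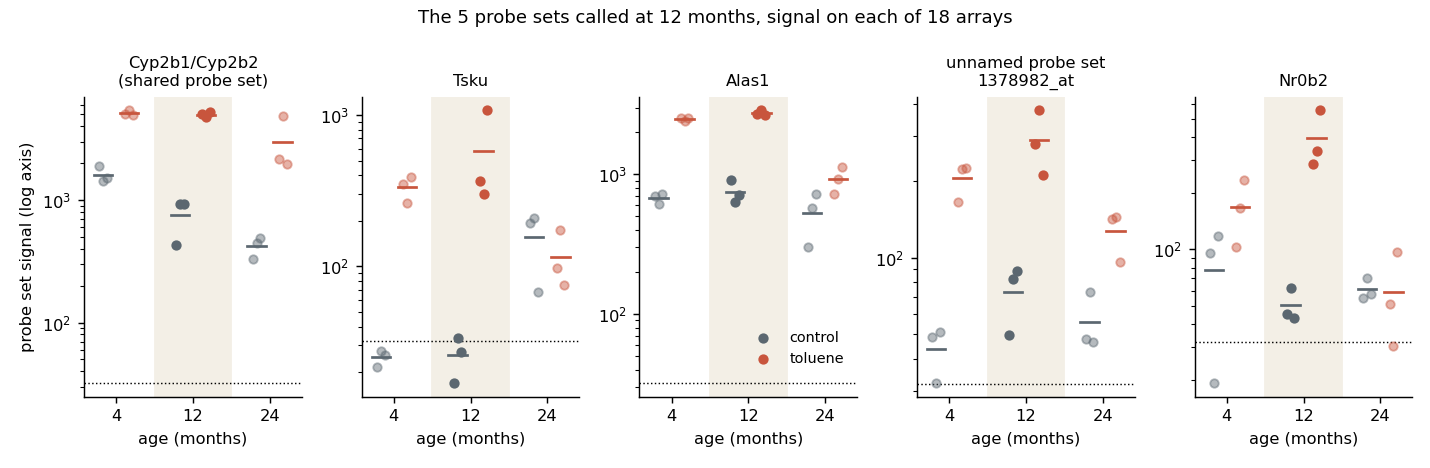
Signal (log axis) of the 5 called probe sets on each of the 18 Brown Norway arrays by age; grey points are controls, red points dosed rats, bars the means of 3, the dotted line the floor of 32 and the shaded band 12 months. The Cyp2b probe set, Alas1 and 1378982_at separate at every age, though Alas1 only just does at 24 months (highest control 727, lowest dosed rat 728). Tsku separates at 4 and 12 months but overlaps at 24 months.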

How the data were processed

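Liver RNA, extracted with TriReagent and cleaned on columns, went to 1 array per rat, per the labels' protocols. The authors deposited linear probe set intensity values, and the submitters' processing notes name MAS5 and RMA with no version, role or order. Sorted signals of the 18 Brown Norway arrays had a coefficient of variation of 1.62%. The table has 24946 probe sets, 23324 with values in this strain. Symbols come from the platform annotation, updated through RefSeq, where 42 Entrez identifiers were not found. All 34 columns were mapped to samples, and 18 were used.

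Signals were floored at 32, log2 was taken, and 6 group means over 18 arrays were fitted with limma 3.58.1 in R 4.3.3, with Benjamini-Hochberg adjustment. The filter used all Brown Norway arrays. A gene in a list is represented by its brightest probe set. SDs are over rats on the linear scale, and folds come from floored log2 values. The script was tested on simulated data.

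Fewer than 10 genes passed, so by the naming rule the 20 of smallest p and every measured toluene-route gene were named. A fixed set of inducible genes and called list members were named too. Of the fixed set, Dbp was below the filter and Hspa1b, like Cyp1a1, had no probe set naming it alone. Insig1, Sqle, Ddit3, Trib3, Egr1, Jun, Ier2, Scd, Gadd45b, Gsta3, the male-dominant genes, the cell type markers and others were chosen after their values were seen. The members and the 46 lists were chosen with earlier results of these data known. Alternatives changed the floor, scaling, filter, variance model, arrays and probe set choice. Leaving out toluene replicate 3 and control replicate 3 together was added after seeing the data. The arrays are separate animals, and their number limits the precision.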

Additional observations from a re-analysis of the deposited data

Results flagged for a closer look

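Tsku and Scd were picked out because the effect of toluene differed between ages in a test of the difference itself. The effect on Tsku at 12 months was larger than at 24 months by 4.29 on the log2 scale (SE 0.64, adjusted p = 0.0455 in limma with Benjamini-Hochberg adjustment), with 3 of 3 dosed rats above all controls at 12 months. For Scd the effect at 12 minus that at 24 months was -3.56 (SE 0.48, adjusted p = 0.0300 in limma), with 3 of 3 dosed rats above all controls at 24 months alone. Dosed rats lay above all controls in 3.39% of all probe sets at 12 months and in 8.77% at 24 months. The same signals entered the test that picked out Tsku and Scd, so their separation is no further evidence. Both calls were lost under several other settings, as given above. Groups of 3 arrays were not tested for outlying samples.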

How the results depend on the processing

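All counts here are of calls by limma. The count of 5, all higher, was 4 to 5 under another floor, scaling, filter, variance model or array weighting, and with only the 6 arrays. It was 3, all higher, with 1 probe set per gene and 3 when probe sets were averaged per gene, since these drop the probe sets that name several genes or none. With each array left out it ranged from 2 to 8, the calls higher from 2 to 5 and the calls lower from 0 to 3. It was 4 without both toluene replicate 3 and control replicate 3, where 3 of the 5 calls were kept and Ugt2b10 was added. The count of effects that differ between 12 and 4 months, 0 as reported, was 1 with no filter and 0 to 1 with each array left out. Between 12 and 24 months, 2 as reported, it was 0 with a floor of 8 and 0 with a floor 4 times as high, 1 with a common median and 1 with the filter on the arrays of 12 months, 4 with no filter, of which neither Tsku nor Scd was one, 4 with the variance trend, 4 with the mean of probe sets, and 0 to 5 with each array left out. The cause was not tested. Tsku missed the threshold with a floor 4 times as high (adjusted p = 0.0548), 1378982_at with no filter (0.0956), and Nr0b2 with a floor of 8 (0.271), no filter (0.314) and array weights (0.0653). Vamp4 passed without control replicate 1 (0.0265) and Ugt2b10 with array weights (0.0245). Over 46 lists, 43 of 768 medians moved by more than the SD between replicates. No paired analysis was possible because the labels give the rats no shared replicate numbers. Signals near the floor give bounds, not levels.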
